A study of Rattus norvegicus with 28 samples.

Results

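The transcripts described here encode 9 serotonin receptors (Htr1a, Htr1b, Htr2a, Htr2c, Htr3a, Htr4, Htr5b, Htr6 and Htr7) and the serotonin transporter Slc6a4, measured in rat hippocampus after traumatic brain injury. They are 10 of the 15637 genes named on the gene expression arrays. They were found through the transcript accession of each probe, and 12 of 30367 non-control probes mapped to them, with 2 probes each for Htr2c and Htr4 and 1 for each of the others. Serotonin is released in the hippocampus by axons whose cell bodies lie in the raphe nuclei of the brainstem. Most serotonin receptors act through G proteins: Htr1a, Htr1b and Htr5b belong to classes coupled to inhibitory G proteins, Htr2a and Htr2c couple to Gq and phospholipase C, and Htr4, Htr6 and Htr7 raise cyclic AMP, whereas Htr3a forms a cation channel. The transporter takes serotonin back into the axon and is the target of the antidepressants given in the study.

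Hippocampal RNA was taken from male Sprague-Dawley rats 24 h after a severe parasagittal fluid-percussion injury (TBI) or a sham operation (Sham), and 1 array was hybridised per rat. Sham had 2 arrays. The 4 injured groups had 3 arrays each and were untreated TBI, TBI+Imipramine (a tricyclic antidepressant), TBI+Prozac (fluoxetine) and TBI+Zoloft (sertraline, which like fluoxetine is a selective serotonin reuptake inhibitor), with the drug injected 1 h after injury. Sham rats with a drug were not analysed here. Untreated means without an antidepressant. According to the paper, rats received either an antidepressant or vehicle, and the labels of TBI and Sham name no vehicle. The comparisons ask whether injury changed these transcripts and whether treated rats differed from untreated injured rats, from Sham and among the drugs. Levels are log2 ratios of a probe's signal to the 75th percentile of its array, taken over probes that were above background, so that 0 is a brightly expressed transcript. Levels of different probes are not compared with each other.

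The arrays had between 14676 and 18196 probes above background. Both Sham arrays lay on a slide of their own, scanned on another day, so that slide and injury cannot be told apart in any comparison with Sham. The 3 TBI arrays and TBI+Prozac replicate 1 shared a slide, and the other 8 drug arrays shared another, so that TBI shares no slide with TBI+Imipramine or TBI+Zoloft and is linked to them only through TBI+Prozac. The hippocampal neuron markers Slc17a7, Camk2a and Neurod6 were above background on all 14 arrays. Prox1, a marker of granule neurons, was above background on none. Arrays also fell into 2 sets by the choroid plexus transcript Ttr, which is described with Htr2c. In bulk tissue fewer cells of a type and less RNA per cell cannot be told apart.

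Of the 10 genes, 4 were above background on all 14 arrays: Htr1a, Htr2c, Htr3a and Htr5b. These 4 entered the tests. Slc6a4 was above background on 0 of 14 arrays, with log2 levels from -8.79 to -7.35, and so was Htr6, with -8.67 to -6.80. Htr1b, from -8.37 to -6.47, Htr2a, from -8.92 to -5.70, and Htr7, from -8.82 to -6.47, were also above background on 0 arrays. A probe that was not above background sets no firm bound on its transcript. Low RNA and a probe that reports its transcript poorly cannot be told apart here, as the dimmer Htr2c probe described below shows. Changes in these 5 genes were not detectable. Slc6a4 is transcribed in the cell bodies of the raphe, which are not part of the hippocampus. Of the raphe markers, the regulators Fev and Gata3 were above background on no array and the synthesis enzyme Tph2 on 3. The markers Slc18a2 and Gata2 went the other way. Both were above background on all arrays of the 3 drug groups and on 2 of 3 TBI arrays. In Sham, Slc18a2 was above background on 1 of 2 arrays and Gata2 on 0.

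Htr4 was at the limit of detection. Its brighter probe was above background on 7 of 14 arrays, in 1 of 2 Sham, 2 of 3 TBI, 2 of 3 TBI+Imipramine, 2 of 3 TBI+Prozac and 0 of 3 TBI+Zoloft arrays. Its level ran from -7.19 in TBI replicate 1 to -4.96 in TBI+Zoloft replicate 3, and neither of these arrays had it above background. No group had the probe above background throughout, and Htr4 was not tested. The second Htr4 probe was above background on TBI+Prozac replicate 1 alone. The 2 probes of Htr2c disagreed as well, since 1 was above background on all 14 arrays and the other on none, with levels from -9.0 to -7.51. Both carry the same Htr2c transcript accession, and all Htr2c values below are from the brighter probe.

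**Figure D1:**
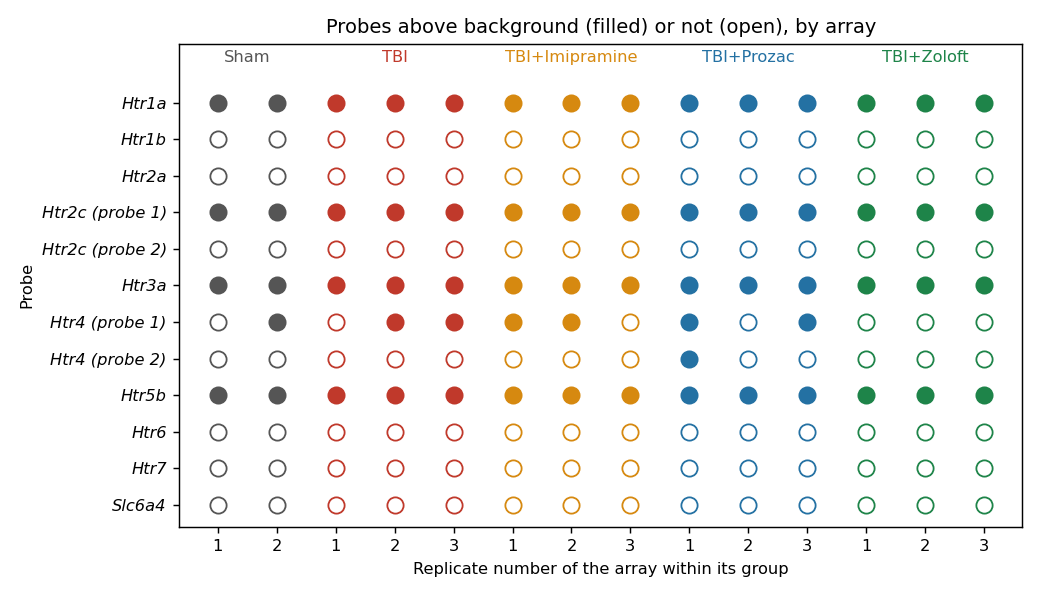
Each row is 1 of the 12 probes and each column 1 of the 14 gene expression arrays, in the order of the groups; a filled circle marks a probe above background on that array and an open circle one that was not. Htr1a, Htr3a, Htr5b and the first Htr2c probe are filled on all 14 arrays, Htr4 on 7 and 1, and the remaining probes on none.

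Htr5b, an inhibitory receptor known from rodent hippocampus and habenula, was lower after injury. Its log2 level was -0.95 and -0.40 in the 2 Sham arrays and -1.56, -1.48 and -1.95 in the TBI arrays. It was -1.50, -1.31 and -1.15 in TBI+Imipramine, -1.46, -1.07 and -1.11 in TBI+Prozac, and -1.75, -1.70 and -1.6 in TBI+Zoloft. All 12 injured arrays lay below both Sham arrays. Taken one at a time, the injured groups lacked overlap with Sham, in either direction, for 38.3% (TBI+Zoloft) to 59.6% (TBI+Imipramine) of all probes. No share over all probes is given for the split of all arrays at once, here or for other genes below.

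Between TBI and Sham 1 of the 4 tested genes passed, Htr5b, against 16.6% of all 17322 probes tested. Htr5b fell from -0.67 ± 0.39 (SD, n = 2) in Sham to -1.66 ± 0.25 (SD, n = 3) in TBI, by 0.99 (SE 0.20, limma adjusted p = 0.0064), to 0.505 times the Sham level. Groups that do not overlap were common in this comparison, at 42.3% of the probes. In TBI+Imipramine vs. Sham 1 of 4 passed, against 23.4% of all probes, and it was again Htr5b, lower by 0.65 (SE 0.20, limma adjusted p = 0.035). The median of all probes lay 0.18 higher in TBI+Imipramine than in Sham, and relative to it Htr5b differed by -0.83. In TBI+Zoloft Htr5b lay at -1.68 ± 0.07 (SD, n = 3), a difference from Sham of -1.01 (SE 0.20, limma adjusted p = 0.014). In TBI+Prozac vs. Sham 0 of 4 passed, against 14.9% of all probes. Htr5b differed there by -0.54 (SE 0.20, limma adjusted p = 0.091; unadjusted p = 0.019), with no overlap between the groups, which held for 52.4% of all probes.

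No drug group was shown to differ from untreated TBI in Htr5b. The difference was 0.34 for TBI+Imipramine (limma adjusted p = 0.31), 0.45 for TBI+Prozac (limma adjusted p = 0.44) and -0.02 for TBI+Zoloft (limma adjusted p = 0.98). The 95% confidence interval ran from 0.06 to 0.84 for TBI+Prozac, before adjustment, and from -0.41 to 0.37 for TBI+Zoloft. All 3 TBI+Prozac arrays lay above all 3 TBI arrays, which held in one direction or the other for 15.1% of all probes, and on their common slide TBI+Prozac replicate 1 lay 0.20 above the mean of the TBI arrays. The calls against Sham rest on the Sham array with the highest level: without Sham replicate 2 the differences were -0.71 for TBI (limma adjusted p = 0.086), -0.37 for TBI+Imipramine (limma adjusted p = 0.33) and -0.73 for TBI+Zoloft (limma adjusted p = 0.14). That for TBI+Imipramine was also lost without TBI+Imipramine replicate 1 (-0.56, limma adjusted p = 0.12) or replicate 2 (-0.65, limma adjusted p = 0.088).

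**Figure D2:**
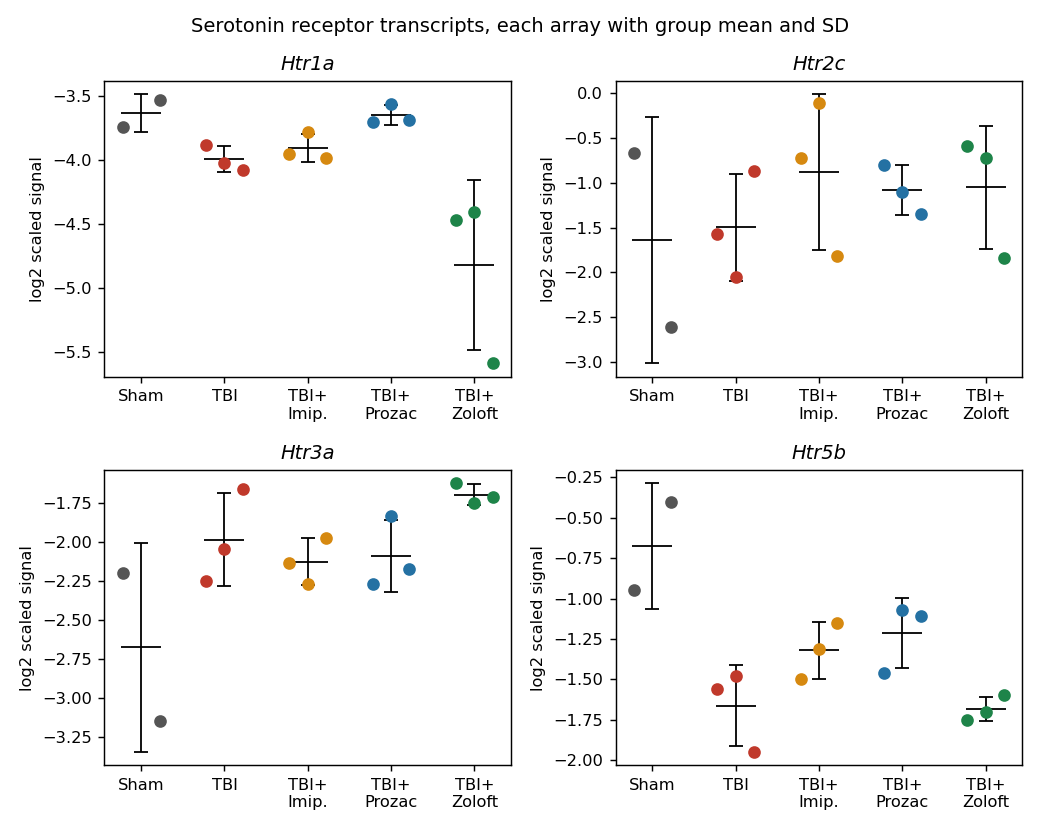
Log2 signal of Htr1a, Htr2c, Htr3a and Htr5b, relative to the 75th percentile of probes above background, on each array (points) with the mean and SD of the group (bars), for Sham (n = 2) and 4 injured groups (n = 3 each). Htr5b lies below both Sham arrays in all 12 injured rats, and Htr1a is lowest in the 3 TBI+Zoloft rats, at -4.41 and below.

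Htr1a, the inhibitory receptor found on hippocampal pyramidal neurons and on raphe neurons, was lowest in the Zoloft group. Its log2 level was -3.74 and -3.53 in Sham, -3.88, -4.02 and -4.08 in TBI, -3.95, -3.78 and -3.98 in TBI+Imipramine and -3.70, -3.56 and -3.69 in TBI+Prozac. In TBI+Zoloft it was -4.47, -4.41 and -5.59. The 3 Zoloft arrays lay below the other 11 arrays, with replicate 3 far below the other two. Against each other group in turn, TBI+Zoloft lacked overlap, in either direction, for 15.3% (TBI) to 38.3% (Sham) of all probes.

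In the F test of limma across the 3 drug groups Htr1a passed (adjusted p = 0.043), as did 3.18% of all probes, and Htr2c, Htr3a and Htr5b did not. Between TBI+Prozac and TBI+Zoloft 1 of the 4 genes passed, Htr1a, against 3.69% of all probes. It was 1.18 higher with Prozac than with Zoloft (SE 0.25, limma adjusted p = 0.029), or 2.26-fold, and 1.06 higher relative to the median of all probes. These groups did not overlap, as for 25.6% of all probes. Between TBI+Imipramine and TBI+Zoloft 0 of 4 passed, against 5.29% of all probes, and Htr1a differed by 0.92 (SE 0.25, limma adjusted p = 0.051). This passed without TBI+Zoloft replicate 1 (1.1, limma adjusted p = 0.034) or replicate 3 (0.53, limma adjusted p = 0.046). Between TBI+Imipramine and TBI+Prozac 0 of 4 passed, against 0.00577% of all probes, and the Htr1a difference was -0.26 with a 95% confidence interval from -0.79 to 0.28. On the slide that held 2 TBI+Prozac and all 3 TBI+Zoloft arrays the difference in Htr1a was 1.2. These arrays did not overlap in Htr1a, nor in Htr3a or Htr5b, and no share over all probes is given for this split. With slide as a fixed block the Htr1a difference between TBI+Prozac and TBI+Zoloft no longer passed (limma adjusted p = 0.13). It also did not pass without any single TBI+Prozac array, TBI+Zoloft replicate 2 or TBI+Imipramine replicate 2 (differences from 1.13 to 1.38, limma adjusted p from 0.051 to 0.10). Normexp background correction of the dim signals lowered it to 0.47 (limma adjusted p = 0.13).

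Htr1a was also lower in TBI+Zoloft than in Sham. In that comparison 3 of the 4 genes passed, against 5.95% of all probes: Htr1a and Htr5b were lower and Htr3a was higher. Htr1a fell from -3.64 ± 0.15 (SD, n = 2) to -4.82 ± 0.67 (SD, n = 3), by 1.19 (SE 0.28, limma adjusted p = 0.027), to 0.439 times the Sham level. Against untreated TBI the Zoloft difference was -0.83 (SE 0.25, limma adjusted p = 0.12; unadjusted p = 0.0054), and 0 of 4 genes passed there, against 1.38% of all probes. Without TBI+Zoloft replicate 3 the difference from Sham was -0.80 and that between TBI+Prozac and TBI+Zoloft 0.79, and both passed. Without either Sham array the difference from Sham did not pass (limma adjusted p = 0.11 and 0.17).

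Neurod6 moved with Htr1a, and its part in the result was not tested. Neurod6, a transcription factor of pyramidal neurons, was 0.65 lower in TBI+Zoloft than in Sham (SE 0.13, limma adjusted p = 0.012) and 0.65 higher in TBI+Prozac than in TBI+Zoloft (SE 0.11, limma adjusted p = 0.018). It was 0.69, 0.80 and 0.63 in the Zoloft rats and at least 1.06 on every other array. The call against Sham was lost without either Sham array (limma adjusted p = 0.071 and 0.093), and that against TBI+Prozac without any single TBI+Prozac array or TBI+Zoloft replicate 2 (limma adjusted p from 0.054 to 0.078). Over the 7 measured genes of the pyramidal and granule neuron list, the summed scaled signal ran from 7.64 to 8.73 in TBI+Zoloft, from 8.46 to 9.69 in TBI, from 8.66 to 10.5 in TBI+Imipramine, from 9.65 to 10.2 in Sham and was at least 10.8 in TBI+Prozac. Gene lists are counted by 1 leading probe per gene, the one above background on most arrays and then the brightest, and other probes that passed are named. Of the 6 list genes tested, 1 was higher in TBI+Prozac than in TBI+Zoloft and 0 were lower, against 3.69% of all probes in either direction. Their median difference was 0.59, against 0.11 over all probes. A second probe of Snap25 also passed there (0.64, limma adjusted p = 0.035), while its leading probe differed by 0.39 (limma adjusted p = 0.093). The genes whose levels followed Htr1a most closely over the 14 arrays, among 8705 named genes, were Pcdh19 (r = 0.956), Kctd4 (r = 0.941) and Map2k6 (r = 0.936). These are correlations chosen as the highest among many genes, between arrays that share groups and slides.

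Htr3a, the subunit of the serotonin-gated cation channel that marks a class of hippocampal interneurons, was higher in TBI+Zoloft than in Sham. Its log2 level was -2.20 and -3.15 in Sham, -2.25, -2.04 and -1.66 in TBI, -2.13, -2.27 and -1.97 in TBI+Imipramine, -2.27, -1.83 and -2.17 in TBI+Prozac and -1.62, -1.75 and -1.71 in TBI+Zoloft. Sham replicate 2 was the lowest array, and Sham replicate 1 lay within the range of the TBI, TBI+Imipramine and TBI+Prozac arrays. The Zoloft rats differed from Sham by 0.98 (SE 0.25, limma adjusted p = 0.043), or 1.97-fold, from -2.67 ± 0.67 (SD, n = 2) to -1.69 ± 0.07 (SD, n = 3). Without Sham replicate 2 the difference was 0.50 and did not pass (limma adjusted p = 0.37), and it passed in only 4 of the 14 fits that left out 1 array, with limma adjusted p from 0.051 to 0.37 in the other fits. TBI differed from Sham by 0.69 (SE 0.25, limma adjusted p = 0.086) with overlapping groups, and without Sham replicate 1 by 1.17 (limma adjusted p = 0.019). Without that array TBI+Imipramine (1.03, limma adjusted p = 0.023) and TBI+Prozac (1.06, limma adjusted p = 0.037) passed as well. Among the injured groups Htr3a did not pass in any comparison, with limma adjusted p from 0.28 to 0.99.

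All 8 genes of the interneuron list, which holds markers of the CCK and VIP cells that carry Htr3a, were above background on all 14 arrays. Cnr1, the cannabinoid receptor of CCK interneurons and pyramidal neurons, was the 1 of these 8 that passed in TBI vs. Sham, against the 16.6% of all probes. It was -0.97 and -1.05 in Sham and -2.10 or lower on all 12 injured arrays. The difference from Sham was -1.70 in TBI (SE 0.24, limma adjusted p = 0.00087), -1.38 in TBI+Imipramine (limma adjusted p = 0.0020), -1.24 in TBI+Prozac (limma adjusted p = 0.0067) and -1.24 in TBI+Zoloft (limma adjusted p = 0.012). The call in TBI+Prozac was lost without Sham replicate 1 (limma adjusted p = 0.056) and that in TBI+Zoloft without either Sham array. A second, dimmer Cnr1 probe differed by -0.23 between TBI and Sham (limma adjusted p = 0.51) and passed in none of these comparisons. Cck and Vip themselves did not pass. Their mean levels in Sham and TBI were 3.47 and 3.74 for Cck and -1.11 and -1.03 for Vip. The genes nearest to Htr3a over the 14 arrays were Nnmt (r = 0.840), Gpn1 (r = 0.813) and Resp18 (r = 0.807), and those nearest to Htr5b were Pwwp2b (r = 0.895), Sec14l1 (r = 0.871) and Chrd (r = 0.865).

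**Figure D3:**
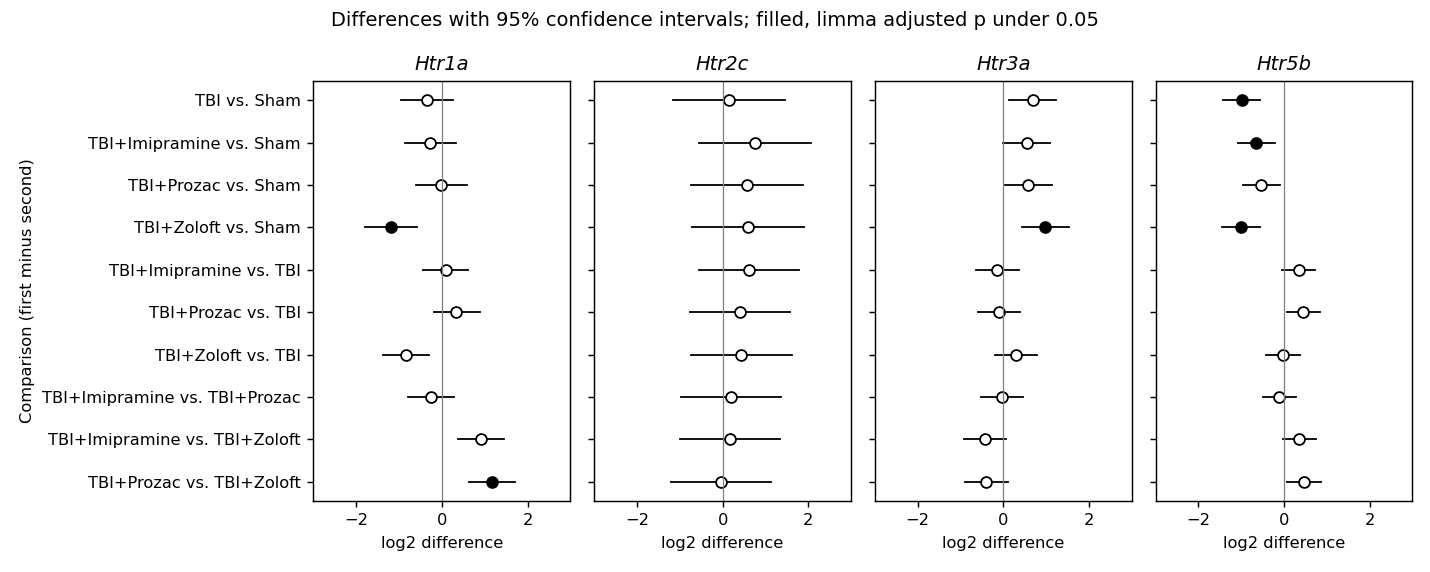
Log2 differences (horizontal axis, first group minus second) of Htr1a, Htr2c, Htr3a and Htr5b in the 10 comparisons, with 95% confidence intervals as lines; filled points had a limma adjusted p under 0.05 over all 17322 probes. The filled points are Htr5b in TBI, TBI+Imipramine and TBI+Zoloft vs. Sham, Htr1a in TBI+Zoloft vs. Sham and TBI+Prozac vs. TBI+Zoloft, and Htr3a in TBI+Zoloft vs. Sham, whereas the Htr2c intervals all span 0.

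None of the 4 genes passed between a drug group and untreated TBI. The background was 2.85% of all probes for TBI+Imipramine vs. TBI and 0.00577% for TBI+Prozac vs. TBI, with 1.38% for TBI+Zoloft as given above. At an unadjusted p under 0.05 there were 3417, 1742 and 2635 probes. The methods' t-test at its own thresholds, an unadjusted p under 0.05 and a change over 1.2-fold, named 1 of the 4 genes in TBI+Prozac vs. TBI (Htr1a) and 0 in each of the other two.

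Htr2c couples to Gq and is known for its very high level in the epithelium of the choroid plexus, the tissue that secretes cerebrospinal fluid and that borders the hippocampus. Its log2 level was -0.67 and -2.61 in Sham, -1.57, -2.05 and -0.87 in TBI, -0.72, -0.11 and -1.82 in TBI+Imipramine, -0.80, -1.1 and -1.35 in TBI+Prozac and -0.59, -0.72 and -1.84 in TBI+Zoloft. Sham replicate 2 was the lowest of the 14 arrays and TBI+Imipramine replicate 2 the highest, and the groups overlapped in all 10 comparisons. Htr2c passed in none of the 10 comparisons (limma adjusted p from 0.39 to 0.98). TBI differed from Sham by 0.14, with a 95% confidence interval from -1.16 to 1.45 that holds sizeable changes in either direction, and the sign turned without Sham replicate 2 (-0.82) or without TBI replicate 3 (-0.17).

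Ttr, the transthyretin transcript made in quantity by choroid plexus epithelium, split the arrays into 2 sets of 7 that crossed the groups. In the lower set Ttr ran from -2.63 to 0.90 and in the higher set from 4.83 to 6.69, and every group had arrays in both. The higher set was Sham replicate 2, TBI replicate 3, TBI+Imipramine replicates 1 and 2, TBI+Prozac replicate 1 and TBI+Zoloft replicates 1 and 2. Of the other 11 choroid plexus genes of the list, 6 did not overlap between the sets, against 0.209% of the probes kept for testing. That share is taken over an unlike set, since Kcnj13, Otx2 and Sostdc1, among these 6, were not kept for testing. Every group had an array in the lower set, so the filter dropped any probe above background on none of that set. Of the 11 genes, 7, among them Kl, Otx2, Kcnj13 and Sostdc1, were above background on no array of the lower set. Folr1 ran from -5.35 to -4.31 in the lower set and from -3.26 to 0.38 in the higher. The summed scaled signal of the 12 genes, Ttr included, ran from 1.73 to 31.0 in Sham, from 1.31 to 31.2 in TBI, from 3.09 to 117 in TBI+Imipramine, from 1.2 to 94.0 in TBI+Prozac and from 2.52 to 109 in TBI+Zoloft.

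Htr2c varied far less than Ttr. In the higher set Htr2c had a median of -0.72, with a range from -2.61 to -0.11, and in the lower set a median of -1.57, with a range from -2.05 to -0.67, so that the sets overlapped. The 2 extremes of Htr2c were both arrays with high Ttr: TBI+Imipramine replicate 2 was highest in both transcripts, and Sham replicate 2 had the lowest Htr2c with a Ttr of 4.86. No correlation over all 14 arrays is given because of the 2 clusters. Within the 7 arrays of the higher set Pearson's r was 0.703 (exact permutation p = 0.031, 0.061 adjusted over the 2 sets) and Spearman's rho 0.714 (exact permutation p = 0.088). Without Sham replicate 2 and TBI replicate 3, the arrays farthest from the median Ttr, r was 0.246 (exact permutation p = 0.67), so that the relation rested on those arrays. Within the 7 arrays of the lower set the relation ran the other way, with r = -0.680 (exact permutation p = 0.10, 0.10 adjusted) and rho = -0.821 (exact permutation p = 0.034, 0.068 adjusted). Without TBI+Prozac replicates 2 and 3 it was -0.836 over 5 arrays (exact permutation p = 0.017). Htr2c was above background on all 7 arrays of the lower set, as were Ttr, Folr1, Kcne2 and Enpp2 of the choroid plexus list. Aqp1 was above background on 2 of these arrays. The other 7 genes of the list, among them Otx2, Sostdc1, Kl and Kcnj13, were so on none.

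**Figure D4:**
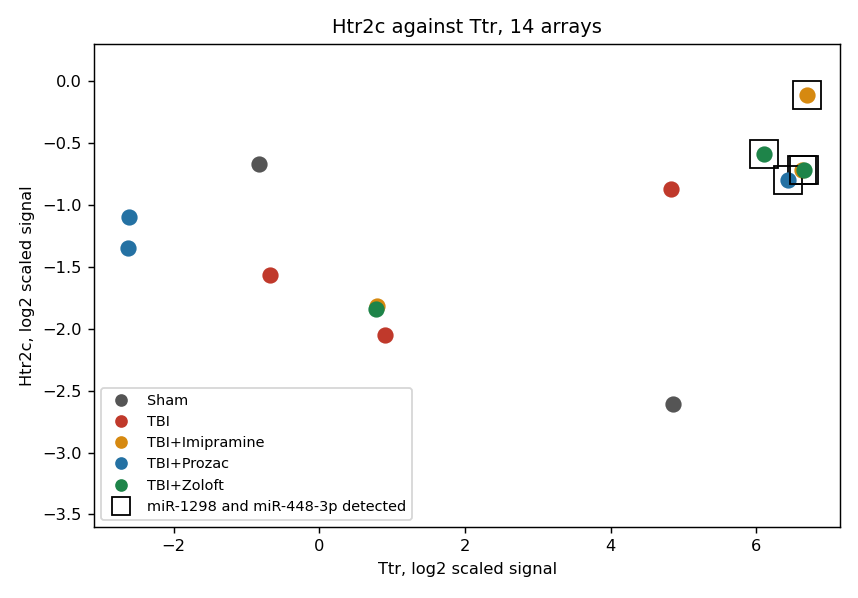
Htr2c (vertical axis) against Ttr (horizontal axis), both as log2 signal relative to the 75th percentile, for the 14 arrays coloured by group; black squares mark rats whose miRNA array detected miR-1298 and miR-448-3p. Ttr splits the arrays at a gap between 0.90 and 4.83, the 5 squares lie at a Ttr of 6.11 and above, and the lowest Htr2c, -2.61, is a Sham array with high Ttr. The Sham miRNA arrays detected only 9 and 11 miRNAs in all and were left out. A Sham point without a square therefore says nothing about these miRNAs.

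With adjustment for Ttr as a covariate Htr2c passed in no comparison, and the calls of Htr5b in TBI and TBI+Zoloft vs. Sham, of Htr1a and of Htr3a were kept. Htr1a also passed between TBI+Imipramine and TBI+Zoloft (0.91, limma adjusted p = 0.050). The call of Htr5b in TBI+Imipramine vs. Sham was lost (-0.58, limma adjusted p = 0.063). On the 7 arrays of the lower set alone, Sham, TBI+Imipramine and TBI+Zoloft have 1 array each, so only the differences are given. Htr5b differed there between TBI and Sham by -0.57 and Htr2c by -1.14. On these arrays Htr1a differed between TBI+Zoloft and TBI by -1.65, with TBI+Zoloft replicate 3, the lowest array, as the only Zoloft array. Htr3a differed between TBI+Zoloft and Sham by 0.48. The genes nearest to Htr2c over the 14 arrays were Galk2 (r = 0.887), Atp6ap1l (r = 0.832) and St6gal1 (r = 0.828).

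The Htr2c gene also hosts miRNAs. Of 419 hairpins in the RefSeq table of the GRCr8 assembly, 5 lay within the 10 genes, all of them within Htr2c and on its strand: Mir3552, Mir764, Mir1912, Mir1298 and Mir448. The miRNA arrays of the same rats carried 8 mature miRNAs of these hairpins, and 4 were detected in at least 1 of the 12 injured rats. The choice to look at them was made after the values were seen, and what follows is a description without a test. The sequences of the detected miRNAs that RefSeq lists are shown because they are read from within the Htr2c locus, with the seed (bases 2 to 8) in capitals:
rno-miR-1298: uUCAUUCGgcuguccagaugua
rno-miR-448-3p: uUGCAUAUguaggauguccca
rno-miR-448-5p: aACAUCCUgcauagugcugcca
In GRCr8 these lie on the plus strand of chromosome X, at chrX:115556987-115557008, chrX:115642026-115642046 and chrX:115641967-115641988. No seed is shared among them, and miR-448-5p and miR-448-3p are the arms of 1 hairpin.

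miR-1298 was detected in 5 of 12 injured rats, with a total signal of 38.9 and 598.8 in TBI+Imipramine replicates 1 and 2, 128.3 in TBI+Prozac replicate 1 and 138.2 and 250.6 in TBI+Zoloft replicates 1 and 2. miR-448-3p was detected in the same 5 rats, at 32.3 and 359.1, 67.8, and 72.6 and 146.8. These were the 5 rats with the highest Ttr, at 6.11 to 6.69. Neither miRNA was detected in TBI replicate 3, whose Ttr was 4.83, or in any of the 6 injured rats of the lower set. miR-448-5p was detected in TBI replicate 3 (69.2) and TBI+Imipramine replicate 2 (42.2), and miR-764-5p in TBI replicate 3 (76.9). The arrays of the injured rats detected from 147 to 261 of 758 miRNAs. TBI replicate 3 detected the most miRNAs and neither of these, whereas TBI+Imipramine replicate 1 had both among its 150. The 2 Sham miRNA arrays detected 9 and 11 miRNAs in all and were left out. The untreated TBI group had no array at a Ttr above 4.83, so that their level in an untreated rat at such a Ttr is not known.

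Among the 5 other serotonin receptors on the array, 1 was tested. Htr2b, a Gq-coupled receptor known from heart, vessels and myeloid cells, was higher in the 4 injured groups than in Sham. It was above background in 0 of 2 Sham arrays, 1 of 3 TBI, 3 of 3 TBI+Imipramine, 3 of 3 TBI+Prozac and 1 of 3 TBI+Zoloft arrays. It was kept for testing only through TBI+Imipramine and TBI+Prozac, where it was high, so that a difference from Sham in those groups was partly fixed by the filter. Its log2 level was -8.24 and -8.60 in Sham, -4.50, -6.24 and -6.77 in TBI, -4.32, -4.03 and -5.32 in TBI+Imipramine, -4.98, -5.81 and -4.97 in TBI+Prozac and -6.04, -6.06 and -5.39 in TBI+Zoloft. Set against the dimmest signal above background on the Sham arrays, Htr2b was at least 3.49-fold higher in TBI+Imipramine (limma adjusted p = 0.00079). In TBI+Prozac it was at least 2.15-fold higher (limma adjusted p = 0.0047). Because of the filter, these p-values are no support for a difference in those groups. The means of TBI (limma adjusted p = 0.0095) and TBI+Zoloft (limma adjusted p = 0.021) were each 1.44-fold over that signal. This is no lower bound, since Htr2b was above background on 1 of 3 arrays in each. The call in TBI was lost without Sham replicate 2 (limma adjusted p = 0.076), and that in TBI+Zoloft without either Sham array or TBI+Zoloft replicate 3 (limma adjusted p from 0.051 to 0.13). Htr1d, Htr1f, Htr3b and Htr5a were above background on no array. Of 5 microglia and macrophage genes, 3 were, like Htr2b, higher in TBI than in Sham and 0 lower, against 16.6% of all probes. These were Itgam (1.05, limma adjusted p = 0.025), Cd68 (1.67, limma adjusted p = 0.026) and Tyrobp (1.22, limma adjusted p = 0.0045). Aif1 differed by 0.70 (limma adjusted p = 0.070) and C1qa by 0.41 (limma adjusted p = 0.33). The summed scaled signal of the 5 genes was 7.0 to 8.83 in Sham and 11.1 to 17.3 over the injured groups. Their part in the Htr2b result was not tested.

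Of 18 G proteins, effectors and partners of these receptors, 17 were tested, and S100a10 changed most. S100a10 (p11) binds serotonin receptors and brings them to the cell surface, and it is also made by activated astrocytes. It was 1.2 and 0.99 in Sham and between 3.17 and 3.88 on the 12 injured arrays. The difference from Sham was 2.42 in TBI (SE 0.21, limma adjusted p = 4.3e-05), 2.74 in TBI+Imipramine, 2.34 in TBI+Prozac and 2.48 in TBI+Zoloft, with limma adjusted p from 1.3e-05 to 8.4e-05. Of the 5 astrocyte genes, Vim (3.09, limma adjusted p = 0.00018) and Gfap were higher with it in TBI vs. Sham, and the leading probes of the other 3 did not pass. In TBI+Zoloft vs. TBI Vim differed by -0.80 (limma adjusted p = 0.20) and S100a10 by 0.06. The summed scaled signal of the astrocyte list ran from 19.3 to 22.7 in Sham and from 18.2 to 30.5 over the injured arrays, and its part in the S100a10 result was not tested. In TBI vs. Sham 2 of the 17 were higher, S100a10 and the arrestin Arrb1 (limma adjusted p = 0.016), and 0 were lower. This share was below the 16.6% of all probes, and the median difference of the 17 was -0.10 against 0.0015 over all probes. The Arrb1 mean in TBI was 1.63-fold over the dimmest signal above background on the Sham arrays. With Arrb1 above background on 2 of 3 TBI arrays, this is no firm lower bound. In TBI+Imipramine vs. Sham 4 were higher, a share close to the 23.4% of all probes and so no result about the list: S100a10, Arrb1 (at least 1.62-fold, limma adjusted p = 0.013), Gnaz (0.85, limma adjusted p = 0.036) and Gnai3 (0.77, limma adjusted p = 0.027), the latter both inhibitory G protein subunits. Arrb1 was above background on 0 of 2 Sham arrays and Gnaz on 1, and both were kept for testing only through TBI+Imipramine and TBI+Prozac. Their differences from Sham in TBI+Imipramine were thus partly fixed by the filter, and their p-values there are no support for a difference. Relative to the median of all probes Gnai3 differed by 0.59. The fitted differences of Arrb1 and Gnaz became -0.02 with normexp, and both Arrb1 calls were lost without either Sham array. Gnai3 was lost without either Sham array as well (limma adjusted p = 0.11 and 0.12), and Gnaz was 0.48 without Sham replicate 2 (limma adjusted p = 0.34). Between TBI+Prozac and TBI+Zoloft 1 was higher with Prozac, the Gq-class subunit Gna11 (0.90, limma adjusted p = 0.045), against 3.69% of all probes, a call lost without 10 of the 14 arrays. A second probe of the phospholipase gene Plcb1 passed there (0.92, limma adjusted p = 0.024) and in TBI+Imipramine vs. TBI+Zoloft (0.69, limma adjusted p = 0.047), while its leading probe differed by 0.13 and 0.23 and did not pass.

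**Figure D5:**
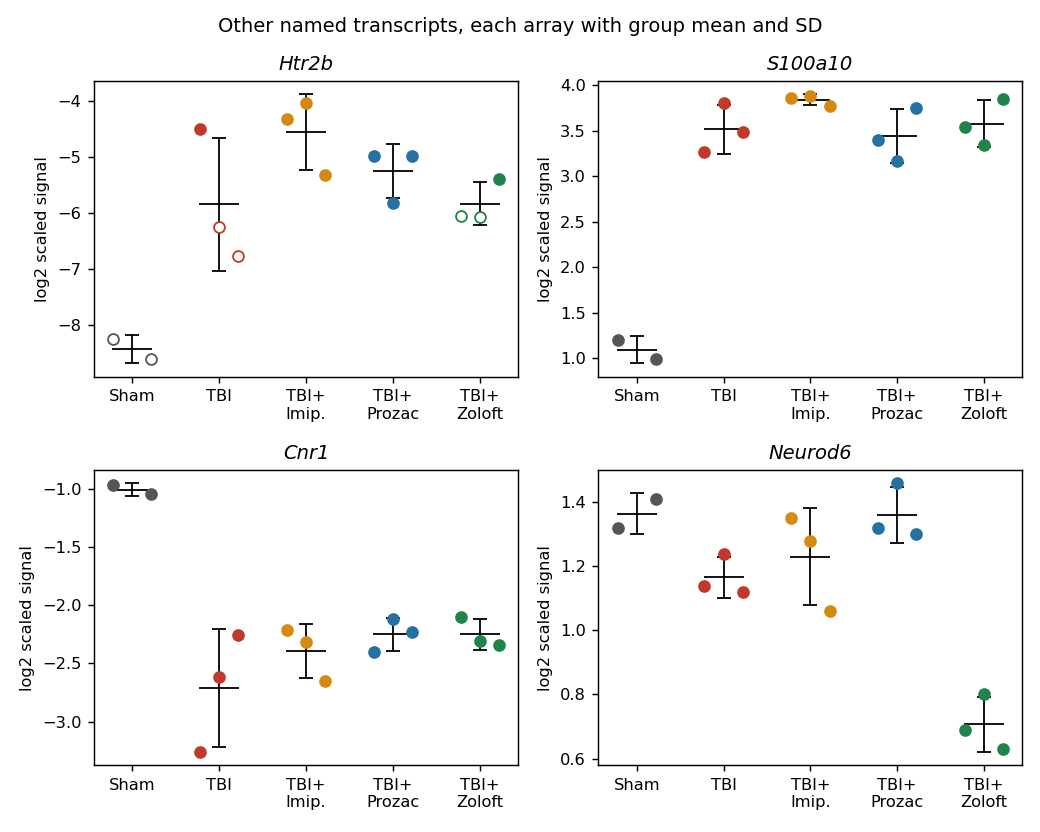
Log2 signal of Htr2b, S100a10, Cnr1 and Neurod6, relative to the 75th percentile of probes above background, on each array (points) with the mean and SD of each group (bars); open points were not above background. S100a10 lies at 3.17 or above in all 12 injured rats against 0.99 and 1.2 in Sham, Cnr1 is lower in all injured rats, and Neurod6 is lowest in the 3 TBI+Zoloft rats.

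Of 16 genes of serotonin synthesis, storage, uptake and breakdown 10 were tested, and 0 of 10 passed by their leading probes in TBI vs. Sham, against 16.6% of all probes. Other probes of these genes disagreed. A second probe of Spr, the last enzyme in making the hydroxylase cofactor, was higher in TBI than in Sham (0.77, limma adjusted p = 0.0017), and a second probe of the transporter Slc29a4 was lower (-0.87, limma adjusted p = 0.039), while both leading probes differed by 0.31 and did not pass. The second Spr probe was also lower in TBI+Zoloft than in TBI (-0.66, limma adjusted p = 0.025), where the leading one differed by -0.13 (limma adjusted p = 0.67). Gch1, which makes the cofactor of tryptophan and tyrosine hydroxylases, was higher than in Sham in TBI+Imipramine (2.38, SE 0.59, limma adjusted p = 0.013) and TBI+Zoloft (2.68, SE 0.59, limma adjusted p = 0.021), where TBI+Zoloft replicate 3 at -1.45 was highest. Neither passed without Sham replicate 1 (limma adjusted p = 0.12 and 0.17), and that in TBI+Imipramine was 2.21 without TBI+Imipramine replicate 2 (limma adjusted p = 0.050). Gch1 differed from Sham the same way in TBI (1.76, limma adjusted p = 0.062) and TBI+Prozac (1.73, limma adjusted p = 0.070), without passing. Against untreated TBI it did not pass in TBI+Imipramine (0.61, limma adjusted p = 0.53) or TBI+Zoloft (0.92, limma adjusted p = 0.45). Maob, a monoamine oxidase of glia and serotonin neurons, was 0.78 higher in TBI+Prozac than in TBI+Zoloft (SE 0.17, limma adjusted p = 0.031), with -0.60, -0.80 and -0.56 against -1.15, -1.40 and -1.74. The call was lost without any single TBI+Prozac array, TBI+Zoloft replicate 2 or 3, or TBI+Imipramine replicate 2 (differences from 0.62 to 0.85). Of the 5 tested genes of the kynurenine branch, which carries tryptophan away from serotonin, 1 passed in TBI+Imipramine vs. Sham, against 23.4% of all probes: Qprt, which uses up quinolinic acid, was 0.66 higher in TBI+Imipramine than in Sham (SE 0.19, limma adjusted p = 0.028), and 0.47 relative to the median of all probes. It did not pass without either Sham array (limma adjusted p = 0.071 and 0.18). Ido1, Tdo2 and Kmo were above background on no array.

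The remaining cell type lists were checked for tissue from outside the hippocampus in TBI vs. Sham, where 16.6% of all probes passed. Of 2 tested raphe genes 1 was higher (Gata2, limma adjusted p = 0.044), and it was above background on no Sham array. Its TBI mean was 1.58-fold over the dimmest signal above background on the Sham arrays, which is no firm lower bound. Gata2 was above background on 2 of 3 TBI arrays and was kept for testing only through the drug groups, where it was higher than in Sham. The 2 tested thalamus genes went opposite ways: Prkcd was higher by 1.21 (limma adjusted p = 0.049), and Slitrk6 differed by -1.26 and did not pass (limma adjusted p = 0.13). Gbx2 was above background on no array and the habenula gene Chrna3 on 1, and no probe was matched here to Tcf7l2, Rora, Pou4f1 or Hba1. The 1 tested habenula gene, Chrnb4, was lower in TBI by 1.0 (SE 0.15, limma adjusted p = 0.0011), and the habenula marker Gpr151 was above background on no array. Htr5b is also known from the habenula, and the part of that tissue in the Htr5b result was not tested. Against TBI, Chrnb4 differed by 0.69 in TBI+Imipramine (limma adjusted p = 0.020), by 0.82 in TBI+Zoloft (limma adjusted p = 0.023) and by 0.59 in TBI+Prozac (limma adjusted p = 0.22), and Htr5b by 0.34, -0.02 and 0.45. The 2 Chrnb4 calls were lost in 3 leave-one-out fits each, and with slide as a fixed block the differences were 0.54 (limma adjusted p = 0.81) and 0.67 (limma adjusted p = 1.0). The raphe list's Slc18a2, a vesicular monoamine transporter, differed by 0.82 (limma adjusted p = 0.41). Of 5 astrocyte genes 2 were higher in TBI than in Sham, Gfap (1.88, limma adjusted p = 0.014) and Vim. By their leading probes Aqp4 differed by -0.07, Slc1a3 by -0.24 and Aldh1l1 by -0.68 (limma adjusted p = 0.078), whereas another probe of Aqp4 (1.19, limma adjusted p = 0.012) and of Slc1a3 (0.81, limma adjusted p = 0.016) was higher. Of 3 blood genes none passed, with a difference of -0.46 for the haemoglobin gene Hbb (limma adjusted p = 0.37) of -0.23 for Alas2 (limma adjusted p = 0.76) and of -0.20 for Slc4a1 (limma adjusted p = 0.79). In the pyramidal and granule neuron list the synaptic vesicle gene Syt1 fell by 0.67 in TBI (limma adjusted p = 0.029). In the interneuron list Gad1 and Gad2, the enzymes of GABA synthesis, differed by -0.21 and -0.23 (limma adjusted p = 0.55 and 0.58).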

How the data were processed

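Hippocampal RNA was labelled with 1 dye (Cy3) and hybridised to Agilent gene expression and miRNA arrays, 14 of each. The authors deposited scanner intensity values from Agilent Feature Extraction 11.5.1.1, already background-corrected, and a table of log2 values, which was an alternative here. The mean processed intensity of spots without outlier flags was divided by the 75th percentile of probes above background, which removes any shift common to a whole array, and log2 was taken. Probes above background on all arrays of at least 1 group were kept (17322 of 30367). Genes were named through transcript accessions, which gave 18643 probes 1 symbol. One 5-group model was fitted to 14 arrays with limma 3.58.1 (R 4.3.3), two-sided, with Benjamini-Hochberg adjustment over kept probes and a threshold of 0.05. Correlations used SciPy 1.17.1 (Python 3.11.15). The fit was tested on simulated data.

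The titles give each array a rat number that recurs on both platforms, so replicates are separate rats and p-values measure the spread between them. The number of arrays limits the precision. The 10 members and the gene lists were chosen with earlier results of these data known. Named were all members, Ttr, the list genes past the threshold (up to 3 each way per list), the first 3 genes of each cell type list and the 3 genes most correlated with a member. Alternatives were the background correction, scaling, filter, test, blocks, samples fitted, Ttr as a covariate and leaving out each array. The planned normexp on the mean spot signal was not run, since the median spot signal is what was used from the files. Normexp (offset 50) on the median spot signal and the fit without the arrays with high Ttr were chosen after seeing the data.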

Additional observations from a re-analysis of the deposited data

How the results depend on the processing

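The number of the 4 tested genes that passed changed as follows. In TBI vs. Sham (1 gene) it was 0 when only the groups compared were fitted, and 0 by the methods' t-test after adjustment and 2 without. In TBI+Imipramine vs. Sham (1) it was 0 with no filter on dim probes, with only the groups compared, with Ttr as a covariate and by the methods' t-test either way. The fit without the arrays with high Ttr is not counted here, since it leaves 3 groups with 1 array each. In TBI+Zoloft vs. Sham (3) it was 1 with no filter, 0 with only the groups compared, and 0 and 1 by the methods' t-test with and without adjustment. In TBI+Prozac vs. Sham (0) it was 1 with normexp. In TBI+Prozac vs. TBI+Zoloft (1) it was 0 with normexp, quantile normalization, the 75th percentile over all probes, the series-table values, no filter, slide as a fixed block, only the groups compared and the adjusted t-test, and 3 by the unadjusted one. In TBI+Imipramine vs. TBI+Zoloft (0) it was 1 with probes above background on all arrays and with Ttr as a covariate, and 2 by the unadjusted t-test. The unadjusted t-test, counted here by p alone, gave 1 in TBI+Prozac vs. TBI and in TBI+Imipramine vs. TBI+Prozac (0 each), and the latter was 0 with the methods' 1.2-fold limit. Leaving out 1 array gave 0 to 2 in TBI vs. Sham and TBI+Imipramine vs. Sham, 0 to 1 in TBI+Prozac vs. Sham, TBI+Imipramine vs. TBI+Zoloft and TBI+Prozac vs. TBI+Zoloft, 0 to 3 in TBI+Zoloft vs. Sham and 0 in the remaining comparisons. Of the single differences, Htr2c in TBI vs. Sham ran from -0.82 (without Sham replicate 2) to 1.11 (without Sham replicate 1) when 1 array was left out, and was -0.17 without TBI replicate 3 and -1.14 without the arrays with high Ttr, and Arrb1 and Gnaz in TBI+Imipramine vs. Sham to -0.02 with normexp. The correlation of Htr2c with Ttr was -0.836 in the lower set without the 2 farthest arrays. In the higher set it was 0.644 with normexp, 0.65 with quantile normalization, 0.658 in the series-table values and 0.246 without the 2 farthest arrays. Centring within groups was not run, since in each set 3 groups hold 1 array. The cause of these changes was not tested.

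Replicate numbers did not pair the samples: the deviations of 26 same-numbered pairs correlated from -0.23 to 0.23, with 2 pairs over 0.1. With the replicate number as a block 1 gene passed in TBI vs. Sham, 1 in TBI+Imipramine vs. Sham, 2 in TBI+Zoloft vs. Sham, where Htr3a was lost (0.93, limma adjusted p = 0.091), 1 in TBI+Prozac vs. TBI+Zoloft and 0 elsewhere. Dim signal limits the other 6 genes, and 2 Sham arrays on a slide of their own limit every comparison with Sham.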
